A study of Rattus norvegicus with 12 samples.

Results

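The genes described here code for the enzymes that carry valine and isoleucine from their acyl-CoA forms to propionyl-CoA, and propionyl-CoA on toward succinyl-CoA. The group was set by gene name, with earlier results of these data known: Acadsb, Hsd17b10, Acad8, Hibch, Hibadh, Aldh6a1, Pcca, Pccb and Mcee. Counts of its genes set beside the share of all probe sets are therefore a description. A probe set counted only where its annotation gave exactly 1 gene symbol, equal to one of these names. This held for 8 of the 9 genes, with 1 probe set each, out of 14506 genes with such a probe set. Acad8, whose enzyme opens the valine branch, was not analysed here.

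The samples were livers of 12 male Sprague-Dawley rats, sold as Diet-induced obese animals and 20 weeks old at sampling. From 12 weeks of age all of them had eaten, without restriction for 8 weeks, a diet rich in fat and sucrose with 4.6 kcal per gram and 10% of its energy from protein. That protein was casein in the control group, skim milk powder in the dairy group, and casein (7.1% of energy) with free leucine (2.9%) in the leucine group, with 4 samples per diet. Numbered samples of a diet were read as 1 sample per rat, and if they were not from separate rats the p-values measure a technical spread. The leucine diet held less casein than the control diet, so an effect of either cannot be told apart, nor, in the dairy diet, that of milk protein and of all else in the powder. Each sample's RNA was hybridised to its own Affymetrix Rat Gene 1.0 ST array, and each value is a log2 signal, so a difference of 1 is a doubling. Signals of different probe sets are not compared with each other, since a probe set's brightness depends on its own probes.

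Valine, isoleucine and leucine lose their amino group and are oxidised to acyl-CoAs by enzymes they share, and then part ways inside the mitochondrion. The isoleucine branch ends in acetyl-CoA and propionyl-CoA, and the valine branch in propionyl-CoA. Propionyl-CoA carboxylase, which carries biotin, makes methylmalonyl-CoA, an epimerase turns it into the form that the cobalamin-dependent mutase can use, and succinyl-CoA enters the citric acid cycle. Liver is poor in the first, transaminating step of the route and rich in the later ones, which also serve propionate from the gut and from odd-chain fatty acids.

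Because the genes of the group varied together across the livers, as described further on, the DNA before 4 of their start sites is shown: Acadsb, Aldh6a1 and Pcca, which had the smallest p-values between the leucine and dairy diets, and Pccb, which codes for the partner subunit of Pcca and had the largest. Each sequence is the 250 bases before the gene's start in RefSeq's promoter table (build GRCr8), read 5′ to 3′ on the gene's own strand, and all 9 genes had an entry there. The windows lie at chr1:195618966-195619215, plus strand (Acadsb), chr6:109829726-109829975, minus strand (Aldh6a1), chr15:106034368-106034617, plus strand (Pcca) and chr8:110520187-110520436, minus strand (Pccb). Capitals mark matches on either strand to GGGCGG, the GC box, or to CCAAT, the CCAAT box.
Acadsb: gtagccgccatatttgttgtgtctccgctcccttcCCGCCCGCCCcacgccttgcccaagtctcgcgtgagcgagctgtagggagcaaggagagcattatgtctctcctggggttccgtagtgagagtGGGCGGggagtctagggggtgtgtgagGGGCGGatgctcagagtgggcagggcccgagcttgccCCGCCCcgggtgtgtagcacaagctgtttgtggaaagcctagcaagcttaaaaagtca
Aldh6a1: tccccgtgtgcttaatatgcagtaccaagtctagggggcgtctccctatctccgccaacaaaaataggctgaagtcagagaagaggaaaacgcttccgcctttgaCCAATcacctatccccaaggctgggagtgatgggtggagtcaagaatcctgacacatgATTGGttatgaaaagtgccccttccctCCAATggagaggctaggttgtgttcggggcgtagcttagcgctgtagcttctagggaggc
Pcca: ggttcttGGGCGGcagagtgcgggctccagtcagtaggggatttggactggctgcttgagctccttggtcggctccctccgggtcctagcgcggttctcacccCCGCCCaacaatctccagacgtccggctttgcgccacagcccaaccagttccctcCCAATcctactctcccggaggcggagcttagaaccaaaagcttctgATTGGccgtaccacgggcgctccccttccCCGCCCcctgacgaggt
Pccb: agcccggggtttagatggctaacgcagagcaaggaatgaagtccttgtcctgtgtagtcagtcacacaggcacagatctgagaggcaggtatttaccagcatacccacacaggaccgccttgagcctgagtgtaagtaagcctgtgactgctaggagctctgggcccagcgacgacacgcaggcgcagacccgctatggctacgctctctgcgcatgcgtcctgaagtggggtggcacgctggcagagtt

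A GC box lay in the window of 6 of the 9 genes (Acadsb, Acad8, Hibch, Hibadh, Pcca and Mcee), against 30.5% of all 33469 windows in the table. G and C made up 52.4% to 66.4% of the bases in the 9 windows, beside a median of 51.2% for all windows. The part of this content in the count of GC boxes was not tested. A CCAAT box lay in 4 of the 9 (Hsd17b10, Hibadh, Aldh6a1 and Pcca), against 34% of all windows. The window of Aldh6a1 held 3 CCAAT boxes and no GC box, that of Pcca 2 CCAAT and 3 GC boxes, and that of Pccb neither motif. None of the 9 windows held TATAAA (12.9% of all), the cyclic AMP response element TGACGTCA (1.59%), the core of the amino acid response element TTGCATCA (0.693%), or TCAAGGTCA, the site of the estrogen-related receptors (0.388%). The letters searched for the nuclear receptor direct repeat with 1 spacer (0.0508% of all windows) were not found in them either. Nor were those searched for the NRF1 site (0.762%). Only exact matches to these letters counted, so variants of either site were not sought and may be present. These matches describe letters in a short window and show no binding.

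Livers of dairy-fed rats had the lowest mean signal of all 3 diets for each of the 8 genes. Against casein the differences ran from -0.65 for Acadsb to -0.23 for Hsd17b10 (log2, 1.57-fold to 1.17-fold lower), and the median of the 8 was -0.52, beside -0.02 for all 15310 probe sets tested. None of the 8 passed limma's test with adjustment over the whole array (adjusted p from 0.365 to 0.768), where 0.0849% of probe sets were called. At an unadjusted p under 0.05, 5 of the 8 were lower with dairy, beside 6.32% of all probe sets, while 53.1% of all probe sets had a lower mean with dairy. The casein and dairy values overlapped for all 8, while for 2.18% of all probe sets every dairy value lay below every casein value. Between leucine and casein 4 of the 8 means were higher with leucine and 4 lower (43.8% and 56.2% of all probe sets), from -0.26 for Hibch to 0.28 for Acadsb. The leucine diet had higher means than the dairy diet for all 8 (48.0% of all probe sets), from 0.10 for Pccb to 0.93 for Acadsb.

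**Figure D1:**
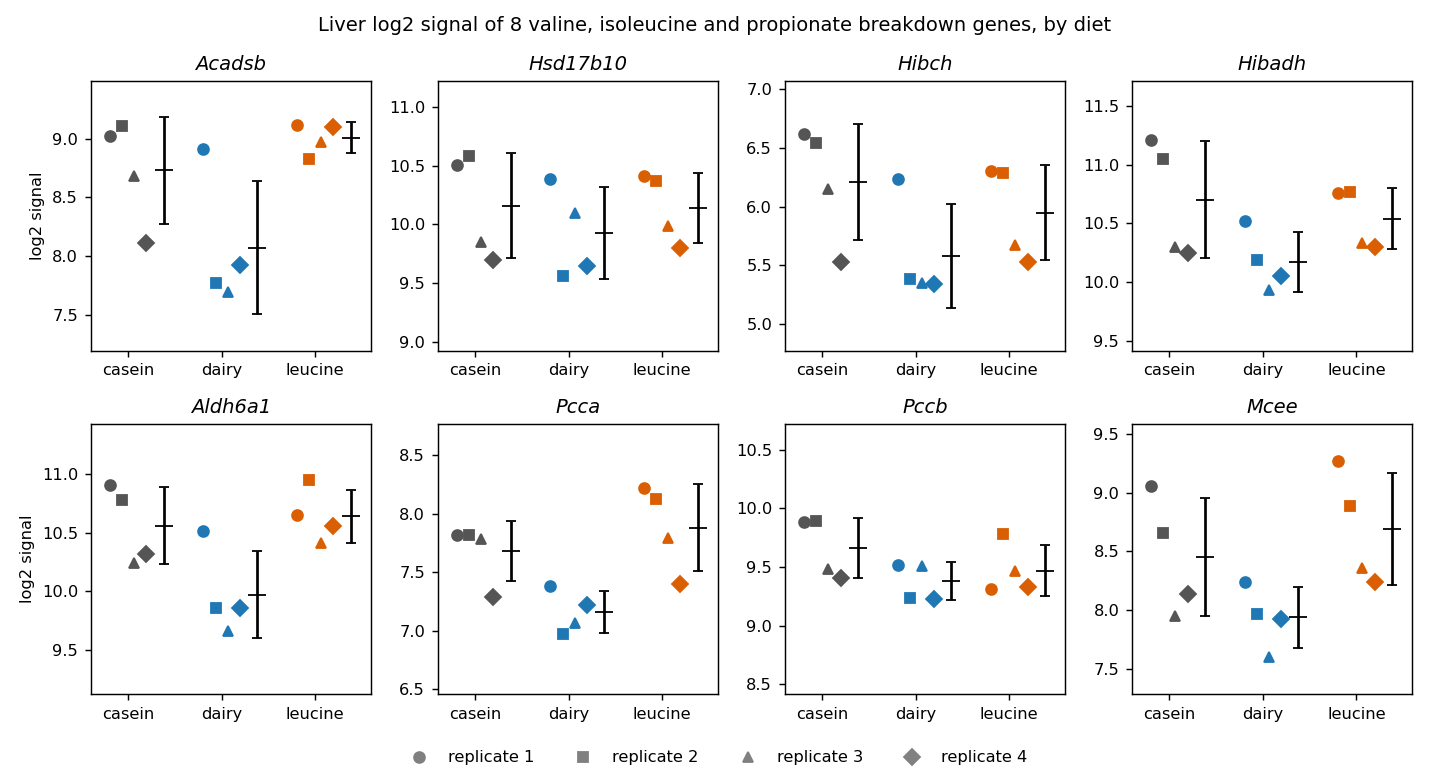
Log2 signal (vertical axis, the same span in each panel) of the 8 genes in each liver, by diet; symbols give the replicate number, and black marks give the mean and SD of the 4 livers of a diet. Dairy has the lowest mean in every panel, and casein and leucine livers with the numbers 1 and 2 tend to lie high. For Pcca all 4 leucine values lie above all 4 dairy values. For Mcee the lowest leucine and the highest dairy liver stand level at 8.24.

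In the isoleucine branch, Acadsb codes for the short and branched chain acyl-CoA dehydrogenase, which introduces the double bond into the isoleucine-derived acyl-CoA. Its log2 signals (probe set 10711664) were 9.02, 9.11, 8.68 and 8.11 in casein livers 1 to 4, 8.91, 7.77, 7.69 and 7.92 in dairy livers, and 9.12, 8.83, 8.97 and 9.10 in leucine livers. Dairy livers 2, 3 and 4 were below every casein and every leucine liver, dairy liver 1 lay among them, and the leucine livers were closely grouped. Means were 8.73 ± 0.453 with casein, 8.07 ± 0.567 with dairy and 9.01 ± 0.134 with leucine (SD, n = 4). Dairy minus casein was -0.65 ± 0.276 (SE, limma adjusted p = 0.433) and leucine minus dairy 0.93 ± 0.276 (limma adjusted p = 0.657), a 1.91-fold higher signal with leucine. This was the largest difference of the group in both comparisons.

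Hsd17b10 codes for the dehydrogenase that acts 2 steps after Acadsb in the isoleucine branch, and whose protein also forms part of mitochondrial RNase P. Its signals (probe set 10933130) were 10.51, 10.58, 9.85 and 9.70 with casein, 10.39, 9.56, 10.10 and 9.65 with dairy, and 10.41, 10.37, 9.99 and 9.80 with leucine. The ranges of all 3 diets overlapped, and each diet held high and low livers. The means of 10.16 ± 0.450, 9.93 ± 0.393 and 10.14 ± 0.296 (SD, n = 4) differed by less than the spread between livers. The dairy mean differed from the casein mean by -0.23, with a 95% interval from -0.78 to 0.32 (limma adjusted p = 0.768). This value ran from -0.39 without dairy replicate 1 (and likewise without casein replicate 4) to -0.09 without casein replicate 2. It was -0.12 without casein replicate 1, -0.11 without dairy replicate 2 and -0.14 without dairy replicate 4, and -0.68 with array quality weights (limma adjusted p = 0.066).

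In the valine branch, Hibch removes coenzyme A from the valine-derived hydroxyacyl-CoA, the step that frees hydroxyisobutyrate. Signals of Hibch (probe set 10927809) were 6.62, 6.54, 6.15 and 5.53 with casein, 6.24, 5.38, 5.35 and 5.34 with dairy, and 6.30, 6.29, 5.67 and 5.53 with leucine. Dairy livers 2, 3 and 4 were nearly equal and below every other liver, and dairy liver 1 stood well above them. Against casein the dairy mean differed by -0.63 ± 0.289 (SE, limma adjusted p = 0.454) and the leucine mean by -0.26 ± 0.289 (limma adjusted p = 0.999).

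Hibadh oxidises hydroxyisobutyrate to methylmalonate semialdehyde. Its signals (probe set 10862586) were 11.21, 11.05, 10.30 and 10.25 with casein, 10.52, 10.19, 9.93 and 10.05 with dairy, and 10.76, 10.77, 10.33 and 10.30 with leucine. Casein livers fell into a high pair and a low pair, and the low pair lay within the dairy range. Dairy minus casein was -0.53 ± 0.238 (SE, limma adjusted p = 0.448), and the leucine mean of 10.54 ± 0.259 (SD, n = 4) lay between the casein mean of 10.70 ± 0.499 and the dairy mean of 10.17 ± 0.254.

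Aldh6a1, the methylmalonate semialdehyde dehydrogenase, ends the valine branch by making propionyl-CoA. Its signals (probe set 10891120) were 10.91, 10.78, 10.24 and 10.32 with casein, 9.86, 9.66 and 9.86 in dairy livers 2, 3 and 4 and 10.51 in dairy liver 1, and 10.65, 10.95, 10.41 and 10.56 with leucine. Dairy liver 1 alone reached the range of the other diets. Dairy minus casein was -0.59 ± 0.216 (SE), with the smallest p of the group in this comparison (unadjusted p = 0.0178, limma adjusted p = 0.365). Leucine minus dairy was 0.67 ± 0.216 (limma adjusted p = 0.657), and leucine minus casein 0.08 with a 95% interval from -0.39 to 0.55.

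Pcca and Pccb code for the alpha and beta subunits of propionyl-CoA carboxylase, the entry to the propionate route, with the biotin on the alpha subunit. Signals of Pcca (probe set 10782166) were 7.82, 7.82, 7.78 and 7.29 with casein, 7.38, 6.97, 7.07 and 7.22 with dairy, and 8.22, 8.12, 7.79 and 7.40 with leucine. Every leucine liver was above every dairy liver, by a margin of 7.40 against 7.38, while casein liver 4 lay inside the dairy range. Leucine minus dairy was 0.72 ± 0.198 (SE, a 1.65-fold higher signal), with the smallest unadjusted p of the group in any comparison (0.00325, limma adjusted p = 0.657). Dairy minus casein was -0.52 ± 0.198 (SE, limma adjusted p = 0.385).

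Pccb had signals (probe set 10919557) of 9.88, 9.89, 9.48 and 9.41 with casein, 9.52, 9.24, 9.51 and 9.23 with dairy, and 9.31, 9.78, 9.47 and 9.33 with leucine. Casein livers 1 and 2 and leucine liver 2 stood above the rest, and the other 9 livers lay between 9.23 and 9.52. The difference of dairy from casein was -0.29 ± 0.165 (SE, limma adjusted p = 0.537), and leucine minus dairy was 0.10 with a 95% interval from -0.26 to 0.46.

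The signal of Pcca relative to Pccb was taken in each liver as the difference of their log2 signals, in which only changes between livers have a meaning. It was -2.06, -2.07, -1.69 and -2.12 with casein, -2.14, -2.27, -2.43 and -2.01 with dairy, and -1.09, -1.66, -1.68 and -1.94 with leucine. The 4 leucine values all lay above the 4 dairy values, and casein livers overlapped with both. Leucine exceeded dairy by 0.62 ± 0.200 (SE, n = 4 per diet), with an exact two-sided permutation p = 0.0286, the smallest this design allows, and 0.0857 after Benjamini-Hochberg adjustment over the 3 comparisons. Leucine minus casein was 0.39 ± 0.204 (exact permutation p = 0.0571, adjusted 0.0857) and dairy minus casein -0.23 ± 0.134 (exact permutation p = 0.171). By replicate number, whose pairing is not established, leucine was above casein in 4 of 4 pairs (exact paired p = 0.125, the smallest 4 pairs allow). Without leucine replicate 1 leucine minus casein was 0.23. Without casein replicate 3 dairy minus casein was -0.13, and with quantile normalization -0.14. No comparison passed after adjustment. With 4 livers per diet, a single comparison at the smallest possible p could not pass it, and leucine minus dairy already stood at that p. The adjusted test therefore cannot decide whether the 2 subunit genes changed unequally.

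**Figure D2:**
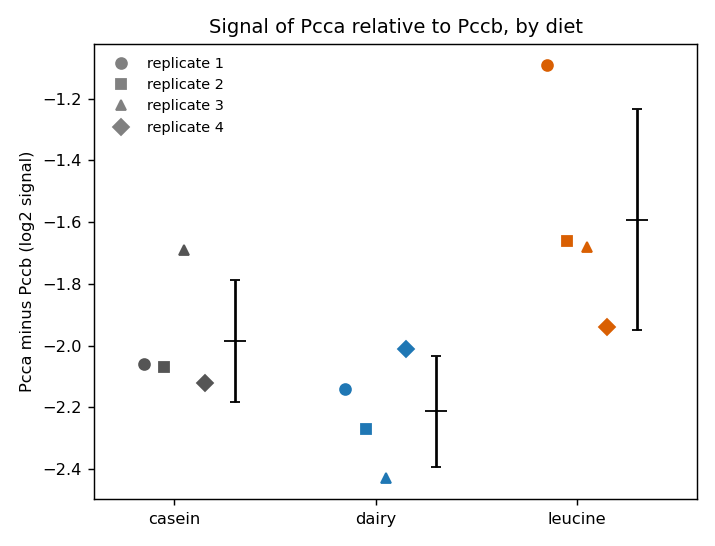
Pcca minus Pccb log2 signal (vertical axis) in each liver, by diet, with replicate numbers as symbols and black marks for the mean and SD of 4 livers. The leucine livers lie from -1.94 to -1.09, above the dairy livers at -2.43 to -2.01, and leucine liver 1 and casein liver 3 stand apart at the top of their diets.

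Mcee, the methylmalonyl-CoA epimerase, prepares methylmalonyl-CoA for the mutase. Its signals (probe set 10707721) were 9.06, 8.66, 7.95 and 8.14 with casein, 8.24, 7.97, 7.60 and 7.92 with dairy, and 9.27, 8.89, 8.36 and 8.24 with leucine. All 4 leucine livers were at or above the highest dairy liver, which stood level with leucine liver 4 to 2 decimals, and casein livers spanned both groups. Leucine minus dairy was 0.75 ± 0.277 (SE, a 1.69-fold higher signal, limma adjusted p = 0.657) and dairy minus casein -0.52 ± 0.277 (SE, limma adjusted p = 0.514), which was -0.31 without casein replicate 1.

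The order of the diets was leucine, casein, dairy for Acadsb, Aldh6a1, Pcca and Mcee, and casein, leucine, dairy for Hsd17b10, Hibch, Hibadh and Pccb. In no gene did leucine and casein, the neighbours at the top, differ by more than the SD between livers pooled over the 3 diets. For Acadsb the difference of 0.28 was below this pooled SD of 0.426, but above the leucine livers' own SD of 0.134. The replicate numbers may pair these diets, though the correlations given under processing do not establish this. Within the 4 pairs of the same number leucine was above casein in all 4 for Pcca and Mcee. It was below casein in all 4 for Hibch and Pccb. The Mcee differences were 0.21, 0.22, 0.41 and 0.10, while the smallest for Hibch, Pccb and Pcca were under 0.01 in size. With the replicate block, which also grouped the dairy livers by number, limma called none of the 8 between leucine and casein (adjusted p = 0.999). The step down to dairy exceeded the pooled SD for Acadsb, Hibadh, Aldh6a1, Pcca and Mcee, and not for Hsd17b10, Hibch and Pccb. A moderated F test across the 3 diets called none of the 8 (limma adjusted p from 0.546 to 0.928), where 0.0327% of all probe sets were called.

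Between leucine and dairy, 4 of the 8 genes were higher with leucine at an unadjusted p under 0.05 (Acadsb, Aldh6a1, Pcca and Mcee), beside 3.65% of all probe sets. The 2 diets' values did not overlap for 2 of the 8, Pcca and Mcee, beside 2.04% of all probe sets. For Mcee this rested on 8.242 in leucine liver 4 against 8.241 in dairy liver 1. The same livers had 7.396 and 7.379 for Pcca. The median difference was 0.52, beside -0.01 for all probe sets, and limma called 0% of all probe sets in this comparison, with 1064 at an unadjusted p under 0.05 in either direction. The same comparison gave 3 or 4 genes at that p when each liver was left out, beside 4.54% to 9.43% of all probe sets. Leucine minus casein had a median of 0.03 and no gene at an unadjusted p under 0.05 (1.92% of all probe sets were lower with leucine and 1.39% higher at that p), and limma called 0% of all probe sets, with 507 under that p. All 3 comparisons share livers, so the differences from dairy and from casein are not independent of each other.

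The count of 5 genes lower with dairy than with casein at an unadjusted p under 0.05 (Acadsb, Hibch, Hibadh, Aldh6a1 and Pcca) rested on single livers, and so did the share of all probe sets at that p in either direction, 10.9% with all livers. The count was 0 without casein replicate 1 (6.11% of all probe sets) or without casein replicate 2 (7.81%). The number fell to 1 when leaving out dairy replicate 2 (9.26%) or dairy replicate 3 (7.93%), and to 2 when leaving out dairy replicate 4 (12.2%). Without casein replicate 3, leucine replicate 1, leucine replicate 2 or leucine replicate 3 it was 3, with 10.0% to 10.2% of all probe sets. Without casein replicate 4 it was 6, with 21.2% of all probe sets at that p and 1.55% called. With array quality weights, a limma option that gives less weight to arrays that fit poorly, 6 of the 8 were called lower with dairy (adjusted p from 0.0227 to 0.0452), where 7.72% of all probe sets were called, and 3 differed between any diets, where 2.73% were called. The largest weights went to dairy replicate 2 (2.83) and casein replicate 2 (2.09), so the weighted calls lean on these livers. The 2 arrays of narrowest signal spread, casein replicate 4 and dairy replicate 3, had weights of 0.293 and 0.296. When both were left out, 0 of the 8 passed, where 1.07% of all probe sets were called, and 6 had an unadjusted p under 0.05, where 17.4% did.

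**Figure D3:**
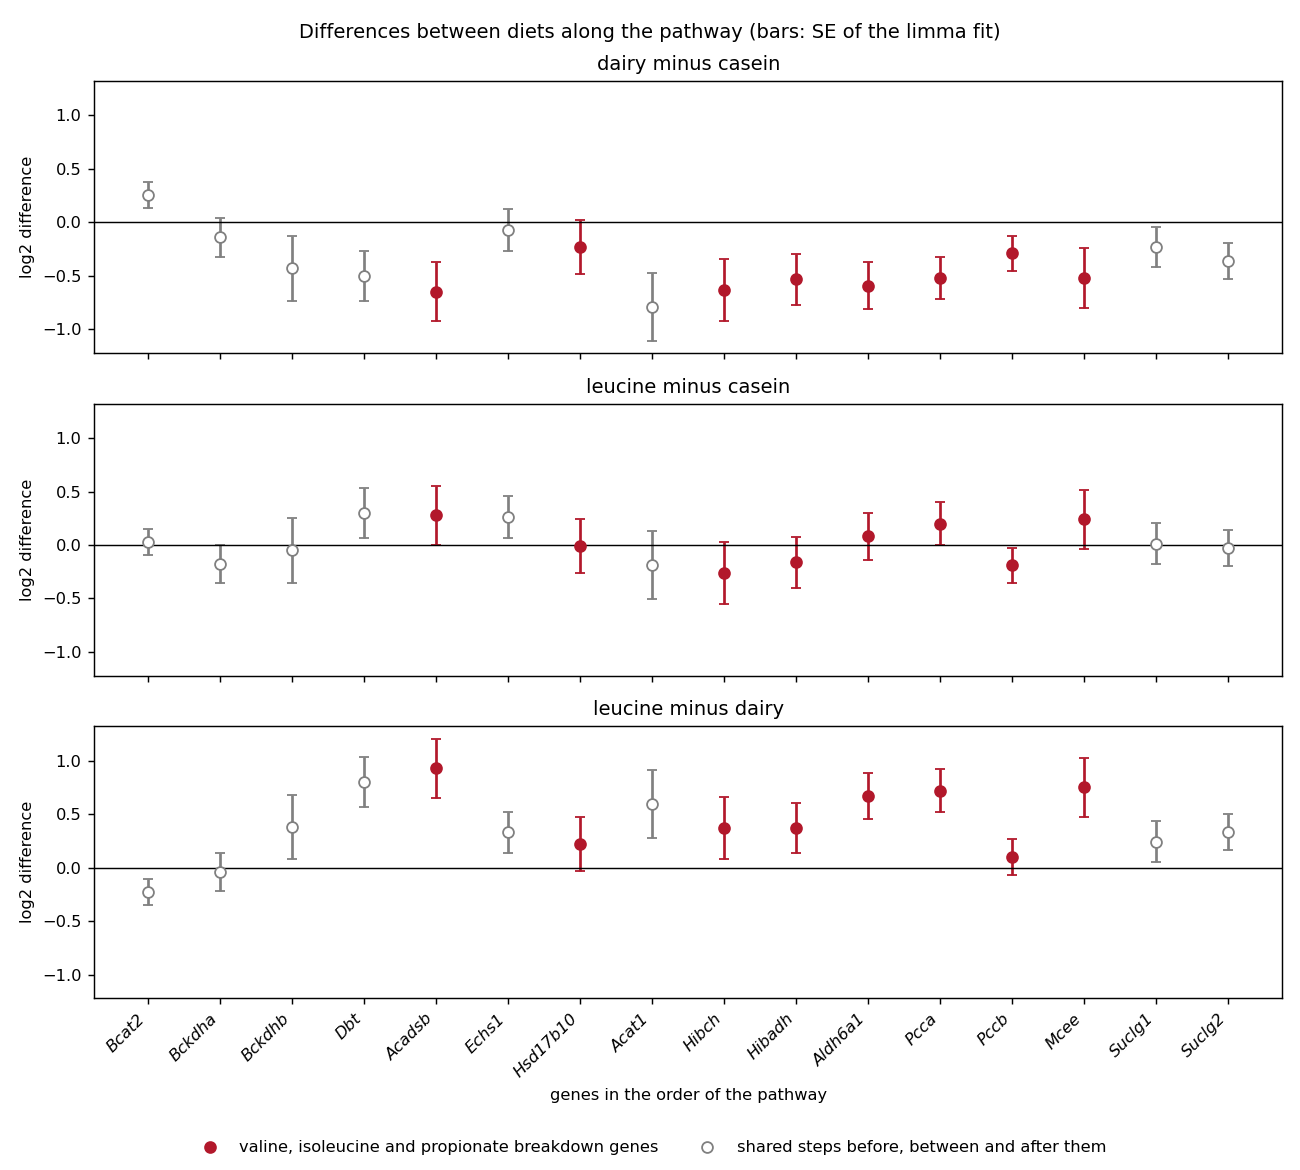
Log2 difference between diets (vertical axis) for the genes in pathway order (horizontal axis); filled red points are the genes described here, open grey points are shared steps, and bars are the SE of the limma fit. With dairy against casein all 8 red points lie between -0.65 and -0.23, with leucine against casein they lie on both sides of 0, and with leucine against dairy they lie between 0.10 and 0.93.

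Along the route, each of the 3 stretches had a median below casein with dairy. The medians were -0.44 for the 2 isoleucine genes, -0.59 for the 3 measured valine genes and -0.52 for the 3 propionate genes. The 2 isoleucine genes were the extremes of the group, at -0.65 for Acadsb and -0.23 for Hsd17b10. The valine genes ran from -0.63 to -0.53. Among the propionate genes Pcca and Mcee stood at -0.52 and Pccb at -0.29. Against dairy the leucine diet had medians of 0.57, 0.37 and 0.72 for these stretches. Within the isoleucine and propionate stretches single genes lay further apart than these medians between leucine and dairy, with 0.93 for Acadsb and 0.22 for Hsd17b10, and 0.72 for Pcca and 0.10 for Pccb. The valine genes lay closer together, at 0.37 for Hibch and Hibadh and 0.67 for Aldh6a1. Contrasts between genes were not tested, apart from Pcca against Pccb.

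The steps that valine and isoleucine share with leucine came first in the route. Of the 9 genes of this entry 7 had lower means with dairy than with casein, 1 of them at an unadjusted p under 0.05, and the median was -0.23. Beside this list and those that follow, 53.1% of all probe sets had a lower mean with dairy, and 6.32% were lower at that p. Dld, the dehydrogenase subunit shared by several mitochondrial complexes, differed by -0.93 ± 0.367 (SE, limma adjusted p = 0.393). Dbt, the core of the branched-chain ketoacid dehydrogenase, was 0.80 ± 0.236 higher with leucine than with dairy (SE, limma adjusted p = 0.657), and the mitochondrial branched-chain amino acid carrier Slc25a44 differed by -0.56 ± 0.213 between leucine and casein (SE, limma adjusted p = 0.999). The aminotransferase Bcat2 was 0.26 higher with dairy than with casein, the opposite sign to the 8 genes, with a limma adjusted p = 0.461.

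Further steps between and beside the 2 branches, a list of 7 genes, all had lower means with dairy than with casein, with a median of -0.42. Acat1, the thiolase that ends the isoleucine branch, differed by -0.79 ± 0.318 (SE, limma adjusted p = 0.409), Hadh by -0.58 and Abat, which can act on semialdehydes of the valine route, by -0.66. In contrast the hydratase Echs1, which serves both branches, differed by -0.07 ± 0.194 (SE). Of the 5 measured genes of the leucine branch 4 were lower with dairy at an unadjusted p under 0.05 (6.32% of all probe sets). The list median was -0.52. Mccc2 and Mccc1, the subunits of the other biotin enzyme of the route, were 0.73 and 0.55 higher with leucine than with dairy, and Ivd 0.39.

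Other mitochondrial enzymes gave a scale for these values. Among 11 acyl-CoA dehydrogenases of other substrates and their electron carriers, 9 had lower means with dairy than with casein, with a median of -0.25 and 2 at an unadjusted p under 0.05. These were Gcdh of lysine breakdown (-0.64) and Acadm of fatty acid oxidation (-0.67), and the electron carrier Etfa stood at -0.59. Among 13 measured genes of the citric acid cycle 9 were lower and 4 higher, with a median of -0.23. Idh3a (-0.71 ± 0.174 SE, limma adjusted p = 0.193) and Sucla2 (-0.91 ± 0.299 SE, limma adjusted p = 0.327) were lower, and citrate synthase Cs was 0.37 higher with dairy (limma adjusted p = 0.422). In no comparison did a gene of these lists pass limma's adjusted test, and whether the lists differ from each other was not tested.

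The 8 genes followed one another from liver to liver, and many genes outside the group followed them as well. Casein livers 1 and 2 held the 2 highest casein values of all 8 genes, leucine livers 1 and 2 the 2 highest leucine values of 7 genes each, and dairy liver 1 the highest dairy value of all 8. The mean deviation of the 8 genes from their own means was 0.52, 0.44, -0.06 and -0.27 in casein livers 1 to 4, 0.10, -0.49, -0.50 and -0.46 in dairy livers, and 0.39, 0.39, 0.01 and -0.08 in leucine livers. Dairy livers 2, 3 and 4 were below the lowest casein value for 7, 6 and 8 genes, and dairy liver 1 for 0. The spread within the casein diet, highest minus lowest liver, was larger than the difference between dairy and casein for all 8 genes.

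**Figure D4:**
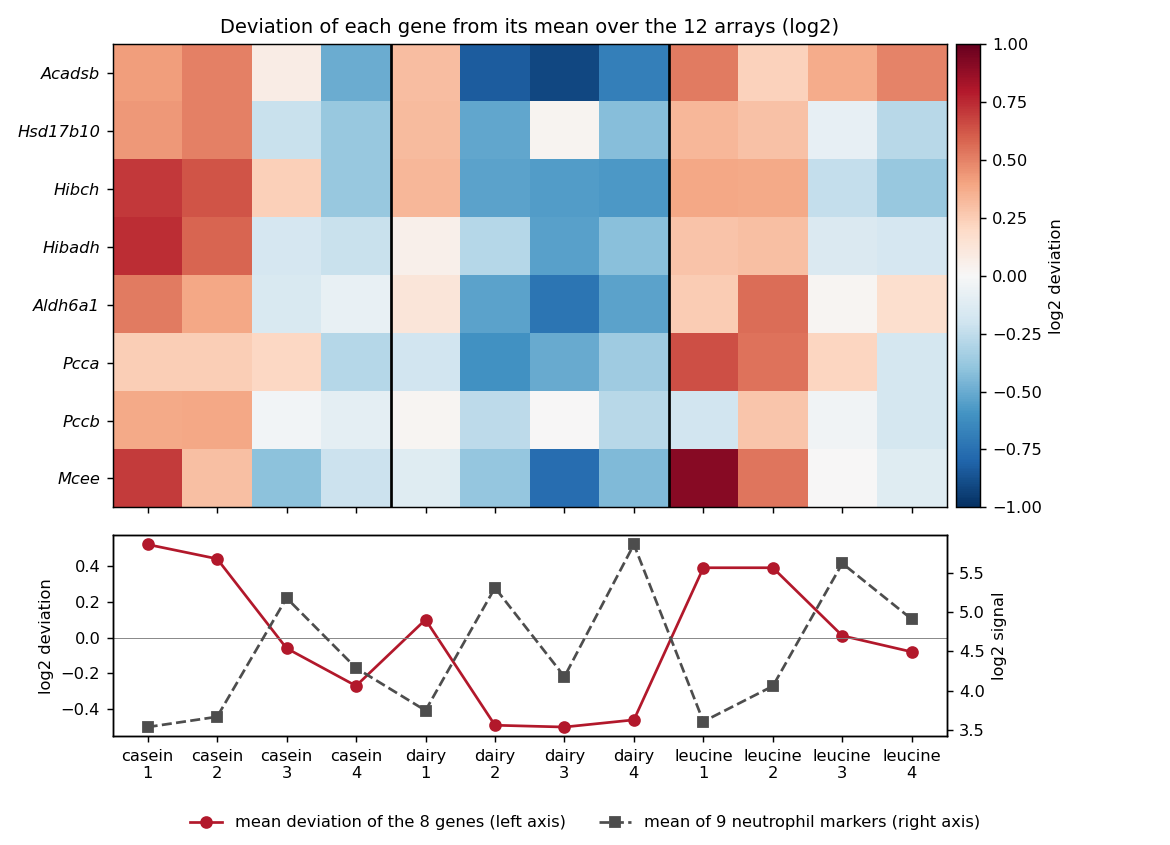
Top, deviation of each gene from its own mean over the 12 livers (colour, log2), with black lines between diets; bottom, the mean deviation of the 8 genes (red, left axis) and the mean log2 signal of 9 neutrophil markers (grey, right axis) in the same livers. Red and blue run through whole columns, and the red line is highest, at 0.52, in casein liver 1, where the neutrophil markers are lowest, at 3.54.

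Some markers of other cells and of hepatocytes moved in the same livers. Of 10 neutrophil markers 9 were measured, and their mean log2 signal was 3.54, 3.67, 5.18 and 4.29 in casein livers, 3.75, 5.31, 4.18 and 5.86 in dairy livers and 3.61, 4.06, 5.62 and 4.91 in leucine livers. Their lowest values stood in casein livers 1 and 2, dairy liver 1 and leucine livers 1 and 2, the livers in which the 8 genes were highest. Dairy liver 3 came next at 4.18, but there the 8 genes had their lowest mean deviation, -0.50. With dairy 8 of the 9 neutrophil markers were higher than with casein (median 0.60), 1 at an unadjusted p under 0.05. With leucine 7 of the 9 were also higher than with casein (median 0.30), where the 8 genes had a median of 0.03, while the granule genes Camp and Ltf stayed between 3.15 and 3.98 in all livers. The 13 hepatocyte markers averaged 12.80, 12.82, 12.44 and 12.59 with casein, 12.58, 12.36, 12.18 and 12.49 with dairy and 12.70, 12.68, 12.28 and 12.53 with leucine. Of these 12 were lower with dairy than with casein, 3 at an unadjusted p under 0.05, with a median of -0.15 and differences down to -1.07. With leucine 12 were also lower than with casein, 0 at that p in limma's fit, with a median of -0.11. Albumin (Alb) lay between 13.46 and 14.08 in every liver. The 6 measured endothelial markers averaged 7.39, 7.39, 7.13 and 7.13 with casein, 7.59, 6.92, 6.90 and 7.01 with dairy and 7.53, 7.46, 6.98 and 7.39 with leucine, and all 6 were higher with leucine than with dairy (median 0.24). Their highest values stood in dairy liver 1 and leucine livers 1 and 2, followed by casein livers 1 and 2 and leucine liver 4. Of 9 stellate cell and fibrosis markers 7 were higher with dairy than with casein (median 0.34), with the highest mean, 7.21, in dairy liver 1. The 10 Kupffer cell and macrophage markers averaged 7.67, 7.65, 8.02 and 7.87 with casein and 8.19, 7.72, 7.18 and 8.25 with dairy. With leucine they averaged 7.49, 7.78, 7.73 and 8.47. Erythroid markers averaged 4.86 to 5.20 with casein, 5.20 to 5.59 with dairy and 4.94 to 6.81 with leucine, highest in leucine liver 3. The part of these markers in the differences between diets was not tested, and in whole tissue fewer cells of a type and less RNA per cell cannot be told apart.

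Outside the group, the genes whose signals most resembled the mean of the 8 over the 12 livers were Pon2 (Pearson r = 0.98), Sccpdh (0.965), Tbl1xr1 (0.962), Bbox1 (0.962), Lgr4 (0.96), Aadac (0.959), Nek4 (0.957) and Apool (0.956). They were taken from 7125 genes brighter than the median probe set, and the r values are a description, since arrays share normalization and signal spread. Bbox1, the last enzyme of carnitine synthesis, was -1.17 ± 0.389 with dairy against casein (SE, limma adjusted p = 0.327) and 1.14 ± 0.389 with leucine against dairy (limma adjusted p = 0.657). Pon2, an antioxidant lactonase, differed by -0.82 and 0.67 in these comparisons. Within the group, the r of each gene with the mean of the other 7 ran from 0.681 for Pccb to 0.926 for Hibadh. Such values were not particular to the group. By r with the mean of the 8, Sucla2 at 0.928 ranked 54 among the 7125 genes, and Btd at 0.706 ranked 1189. Of the neighbouring lists, Acadm (0.936), Sucla2 (0.928) and Auh (0.916) came nearest to the mean of the 8, and Cs (-0.478) ran furthest from it among the listed genes brighter than the median.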

How the data were processed

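Liver RNA of 12 rats (4 per diet) was hybridised to Affymetrix Rat Gene 1.0 ST arrays. The deposited log2 signals, 1 per probe set and array, came from Expression Console, per the submitters' processing notes. Not given in the sources used here: its version, its algorithm and the build. Values ran from 1.06 to 14.37, column medians from 4.43 to 4.62 and column SDs from 2.07 to 2.33, so array spread was not made equal and can move differences. The number of arrays limits the precision.

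Of 29214 probe sets 15310 had exactly 1 symbol in the platform annotation and were tested; 323 with several symbols and 13581 not listed were left out. Diets were compared in R 4.3.3 with limma 3.58.1 (a mean per diet, all 12 arrays in 1 fit, eBayes, 9 residual and 3.448 prior degrees of freedom), two-sided, with Benjamini-Hochberg adjustment over all 15310 and a threshold of 0.05. The script was tested on simulated data. Lists used 1 probe set per gene, the brightest. Named were the 9 genes, up to 3 genes per neighbouring list with the smallest p in any comparison, and the 8 genes most like their mean; Bcat2, Echs1, Auh, Alb, Camp and Ltf were added after their values were seen. Members and lists were chosen with earlier results of these data known. Alternatives were other normalizations, filters, variance models, weights, fewer arrays and a replicate block.

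Labels number the livers of each diet 1 to 4. Deviations of same-numbered livers correlated between leucine and casein at 0.38, 0.38, 0.53 and 0.21, and only by these correlations were the numbers taken to pair those diets. No label says what a number marks. Of the 12 arrays, 2 had an array of the same number as their closest array of another diet, so the pairing is not established. Between dairy and casein the correlations of same-numbered livers ran from -0.51 to 0.50 and between leucine and dairy from -0.30 to 0.59, which gives no pairing.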

Additional observations from a re-analysis of the deposited data

Results flagged for a closer look

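Samples standing far from the other 3 livers of their diet were sought with Dixon's ratio in 27 groups (8 genes and the Pcca to Pccb ratio, in 3 diets), of which about 1 in 20 would be found by chance. Hibch in dairy replicate 1 had a log2 signal of 6.24, against 5.34 to 5.38 in the other dairy livers. Pcca in casein replicate 4 stood at 7.29, against 7.78 to 7.82 in the other casein livers, and this array had the second narrowest signal spread of all. Pcca minus Pccb in casein replicate 3 was -1.69, against -2.12 to -2.06 in the other casein livers.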

How the results depend on the processing

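All 8 dairy minus casein differences kept their sign under every alternative, and none of the 8 genes passed limma's threshold under any except array quality weights, which called 6 with dairy against casein and 3 in the test of any diet. The number of genes at an unadjusted p under 0.05 with dairy against casein, 5 in the text, was 3 with array median centring (10.3% of all probe sets at that p, against 10.9% in the text), 8 with array quality weights (29.3%), 2 with only the 8 arrays of the 2 diets (8.35%), and from 0 to 6 with single livers left out (6.11% to 21.2%). For leucine against casein it was 2 with array quality weights and 0 otherwise. Signs turned for leucine minus casein of Hsd17b10 (0.0497 with median centring; -0.167 to 0.126 with single livers left out), Aldh6a1 (-0.0791 with weights; -0.026 to 0.195), Mcee (-0.0065 with weights) and Hibadh (-0.314 to 0.00582), and for leucine minus dairy of Pccb (-0.00541 to 0.152). The replicate block, which grouped the livers of all 3 diets by number, changed no call. It gave medians of -0.523, 0.0334 and 0.52 for dairy minus casein, leucine minus casein and leucine minus dairy. The genes at an unadjusted p under 0.05 were then 6, 0 and 5, beside 11.8%, 3.86% and 7.75% of all probe sets. Each gene had 1 probe set, so averaging probe sets gave no separate value. Leaving out both arrays of narrowest spread was chosen after seeing the data. The cause of these shifts was not tested.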

Other observations

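The propionate route depends on biotin and cobalamin. Of 8 measured genes of cobalamin handling 7 had lower means with dairy than with casein (53.1% of all probe sets), with a median of -0.40. At an unadjusted p under 0.05, 2 were lower (6.32% of all probe sets). The cobalamin receptor Cd320 differed by -0.77 ± 0.318 and Mmachc, which processes cobalamin in the cytosol, by -0.51 ± 0.232 (SE, limma adjusted p = 0.422 and 0.452). Tcn2, which carries cobalamin in plasma, was 0.60 ± 0.224 higher with leucine than with casein (SE, limma adjusted p = 0.999). The mutase gene Mmut was not analysed here.

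All 5 measured genes of biotin handling and other biotin enzymes had lower means with leucine than with casein (median -0.44), as did 56.2% of all probe sets. In limma's fit 0 of them had an unadjusted p under 0.05, while 1.92% of all probe sets were lower at that p. The vitamin transporter Slc5a6 differed by -0.44 ± 0.208, and the acetyl-CoA carboxylases Acaca and Acacb by -0.47 ± 0.425 and -0.70 ± 0.593 (SE, limma adjusted p = 0.999 for each). Against dairy their leucine differences were -0.22, 0.02 and 0.09.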
